A study of Homo sapiens with 4 samples.

Results

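The genes described here are 8 pattern-recognition genes other than TLR4: the Toll-like receptor genes TLR1, TLR2, TLR3, TLR5 and TLR6, the cytosolic receptor genes NOD1 and NOD2, and RIPK2, which encodes the kinase through which both NOD proteins signal. They were chosen by symbol, by a rule that uses no measured value but with earlier results of these data known, and are 8 of the 24424 gene symbols listed in the count data, of which 18894 had at least 1 count somewhere in the 4 libraries. The RNA came from BEAS-2B, an immortalized human cell line from the bronchial epithelium, described in the labels as wild type. Each of the 4 conditions was represented by 1 library. Control cells received no treatment, and LPS cells received lipopolysaccharide (LPS), the outer-membrane component of Gram-negative bacteria, for 2 hr. WT PDZ+LPS cells received a cell-penetrating peptide derived from the first PDZ domain of the tight junction protein ZO-1 for 24 hr before the same 2 hr of LPS. In mut PDZ+LPS cells the peptide was a mutant in which a pair of neighbouring glycines was replaced by alanines. All cells were grown in the same bronchial epithelial medium, and the doses given to these cells are not stated in the sources used here. No condition with peptide alone was analysed here.

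Toll-like receptors recognize microbial components and pass the signal through adaptor proteins and kinases to NF-kB and interferon regulatory factors. TLR2 binds bacterial lipoproteins as a pair with TLR1 or TLR6, TLR5 binds flagellin at the cell surface, and TLR3 binds double-stranded RNA in endosomes. NOD1 and NOD2 recognize fragments of bacterial peptidoglycan in the cytosol and recruit RIPK2. LPS is the ligand of TLR4, so none of the 8 genes encodes the LPS receptor itself. Airway epithelial cells are known to carry several of these receptors at their surface and inside the cell.

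The total was 19682929 to 25155647 counts per library, lowest in mut PDZ+LPS. Normalized counts are the counts over the geometric size factors (0.851 to 1.15), and a log2 fold change is the difference of log2(normalized count + 1) between 2 libraries. A gene was called when it differed by at least 2-fold and had at least 16 normalized counts in at least one of the 2 libraries. There was no replicate of any condition, so p-values are not given and no difference could be set against the spread between cultures. The 95% intervals are exact (Poisson for a level, Clopper-Pearson for a ratio of 2 libraries) and cover counting error only. They are computed without the added 1, which moves the log2 fold changes of genes with few counts toward 0. All 9 epithelial markers were above 3 counts in at least 1 library, with a summed level of 3196 to 4645 CPM (counts per 1000000). Of 11 macrophage and other leukocyte markers 4 exceeded 3 counts in a library, their sum was 18.0 to 21.9 CPM, and PTPRC and CD163 were at 0 in every library. Endothelial markers (4 of 5 above 3 counts in at least 1 library) summed to 1.12 to 1.49 CPM. Fibroblast markers (5 of 7 above 3 counts in at least 1 library) summed to 19.0 to 24.0 CPM, with COL3A1 and LUM at 0 in every library. The log2 fold changes that involve mut PDZ+LPS depended on transcript length, with a Spearman's rho across 11753 genes of -0.604 in mut PDZ+LPS/LPS against 0.0734 in WT PDZ+LPS/LPS. A length trend and then a GC trend were therefore removed. Values after this removal are given beside the log2 fold changes of the 8 genes that involve mut PDZ+LPS. Length and GC content were not separated in these values. The part of either in any single gene was not tested.

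Each of the 8 genes exceeded 3 counts in at least one library, so none was undetected throughout. TLR2, TLR3, TLR6, NOD1 and RIPK2 reached 16 normalized counts in all 4 libraries. TLR1, TLR5 and NOD2 did not reach that level in any library. NOD2 had no count in Control, which allows a level of up to 0.121 CPM, and TLR1 had no count in WT PDZ+LPS, which allows up to 0.128 CPM. Of the remaining Toll-like receptor genes, TLR8 was at 0 in every library, and TLR7, TLR9 and TLR10 had at most 3 counts in any library.

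In LPS/Control, 2 of the 8 genes (TLR2 and RIPK2) were called higher and 0 lower, where 3.46% of the 13277 genes passing the expression rule were called higher and 1.41% lower. WT PDZ+LPS/Control gave 1 higher (TLR2) and 0 lower, against 3.28% and 1.42% of all genes. The comparison mut PDZ+LPS/Control gave 2 higher (TLR2 and RIPK2) and 0 lower, against 5.13% and 2.96%. None of the 8 genes was called between libraries with LPS. Of all genes, 0.635% were called higher and 0.733% lower in WT PDZ+LPS/LPS. The shares in mut PDZ+LPS/LPS were 2.05% and 1.9%, or 274 and 254 genes, and 146 and 112 genes after removal of the length and GC trend. For mut PDZ+LPS/WT PDZ+LPS they were 2.12% and 2.14%. The 3 comparisons with Control share the same Control library, and 5 of the 8 genes passed the expression rule in each of the 6 comparisons.

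TLR2 was the member with the largest called difference, and TLR6, which encodes its partner, was not called in any comparison. The 250 bases before their RefSeq start sites (GRCh38.p14) are therefore shown, 5′ to 3′. The TLR2 stretch is chr4:153684030-153684279 on the plus strand and the TLR6 stretch is chr4:38856818-38857067 on the minus strand. Capitals mark letters that match GGNNTTTCC, a kappaB-type motif searched on both strands.
TLR2: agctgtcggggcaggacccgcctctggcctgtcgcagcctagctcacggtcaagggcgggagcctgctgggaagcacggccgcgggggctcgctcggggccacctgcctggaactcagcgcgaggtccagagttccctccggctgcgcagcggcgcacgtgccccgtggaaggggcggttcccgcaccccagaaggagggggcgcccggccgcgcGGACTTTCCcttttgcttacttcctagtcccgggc
TLR6: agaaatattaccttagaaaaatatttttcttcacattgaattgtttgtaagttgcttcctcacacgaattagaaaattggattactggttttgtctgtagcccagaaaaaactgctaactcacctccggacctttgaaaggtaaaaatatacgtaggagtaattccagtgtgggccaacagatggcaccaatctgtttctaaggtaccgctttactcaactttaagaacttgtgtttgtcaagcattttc
The TLR2 match, GGACTTTCC, lay 35 to 27 bases before the start site. Of all 35116 promoter windows of 300 bases in the RefSeq table, 6.26% held this motif. The letters TGANTCA, an AP-1-type motif found in 7.71% of the windows, did not occur in the TLR2 window. Neither motif occurred in the 300-base windows of NOD1, NOD2 (2 windows), TLR3, TLR4, TLR5 and TLR6. No window of TLR1 or RIPK2 was searched. Whether RIPK2, the other member called in LPS/Control, holds either motif is therefore not known here. The 2 printed stretches were picked by the values of their genes, and a link between motif and change was not tested for any gene. The TLR2 stretch was GC-rich (72.4% G or C, with 26 CG pairs), whereas the TLR6 stretch held 36.4% G or C and 4 CG pairs. Among the other windows, the 250 bases before the start held 74.0% G or C in NOD1 and 39.2% in TLR3.

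TLR2, the receptor for bacterial lipoproteins, was 3.09 to 3.32 higher on the log2 scale in the 3 libraries with LPS than in Control. It had 240 counts in Control and 2230 in LPS, with 1764 for WT PDZ+LPS and 1705 for mut PDZ+LPS. These correspond to 209, 2098, 1781 and 2003 normalized counts. The Control value lay far below the other values, and WT PDZ+LPS was the lowest of the 3 libraries with LPS. In bulk RNA, fewer expressing cells and less RNA per cell cannot be told apart. The log2 fold change in LPS/Control was 3.32 (95% counting interval 3.14 to 3.53). Relative to Control it was 3.09 with WT PDZ+LPS and 3.26 with mut PDZ+LPS, the latter 3.46 after removal of the length and GC trend. In WT PDZ+LPS/LPS it was -0.24 (-0.33 to -0.15), a difference beyond counting error but well under 2-fold. In mut PDZ+LPS/LPS it was -0.066 (-0.16 to 0.025), and 0.15 after removal of the length and GC trend. Between the peptides, TLR2 was higher with the mutant, with a log2 fold change of 0.17 (0.073 to 0.27) in mut PDZ+LPS/WT PDZ+LPS and 0.40 after removal of the length and GC trend.

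TLR1 and TLR6, the genes of the TLR2 partners, were lower than TLR2 in every library and were not called. Per length, the ratio of TLR2 to TLR6 was 3.46 (2.73 to 4.43) in Control and 45.2 (35.6 to 58.4) in LPS with the longest coding transcripts, and 1.73 and 22.6 with the first listed ones. TLR6 had 97 counts in Control and 69 in LPS, with 66 for WT PDZ+LPS and 49 for mut PDZ+LPS, or 84.4, 64.9, 66.6 and 57.6 normalized counts. Control was the highest library, and the log2 fold change in LPS/Control was -0.37 with a counting interval that included 0 (-0.85 to 0.081). It was 0.038 (-0.47 to 0.55) in WT PDZ+LPS/LPS and -0.17 (-0.73 to 0.38) in mut PDZ+LPS/LPS, and the second value became 0.19 after removal of the length and GC trend. TLR6 was lower beyond counting error in one comparison, mut PDZ+LPS/Control, at -0.54 (-1.08 to -0.042) and at -0.21 after that removal. TLR1 had 10 counts in Control and 1 in LPS, with 0 for WT PDZ+LPS and 3 for mut PDZ+LPS, so Control was the one library above 3 counts. The ratio of TLR1 in LPS to Control was 0.108 (0.00249 to 0.760), and TLR1 was lower in WT PDZ+LPS than in Control by at least 2.87-fold when the 0 was taken as 3 counts, and the counting interval of that ratio reached up to 0.518. In mut PDZ+LPS the ratio to Control was 0.405 (0.0716 to 1.57), and no fold is given among the libraries with LPS. TLR1 and TLR6 are neighbouring paralogs whose reads may not be separable everywhere. Of the 100-base windows of the TLR1 transcript, 4.33% were identical in TLR6. Whether reads were misplaced between them was not tested, and at 10 counts or fewer the TLR1 values are uncertain in any case.

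TLR3, the receptor for double-stranded RNA, was lower in LPS than in Control, and the lowest library was mut PDZ+LPS. It had 359 counts in Control and 258 in LPS, with 269 for WT PDZ+LPS and 140 for mut PDZ+LPS, or 312, 243, 272 and 164 normalized counts. Its log2 fold change was -0.36 (-0.60 to -0.13) in LPS/Control and -0.20 (-0.44 to 0.030) in WT PDZ+LPS/Control. In mut PDZ+LPS/Control it was -0.92 (-1.22 to -0.64), short of the 2-fold threshold, and -0.62 after removal of the length and GC trend. WT PDZ+LPS differed little from LPS (0.16, -0.089 to 0.41). The mutant peptide library was lower than LPS (-0.56, -0.87 to -0.26) and lower than WT PDZ+LPS (-0.72, -1.03 to -0.42). Removal of the length and GC trend brought these values to -0.23 and -0.36. The longest TLR3 transcript has 6015 bases, and 4200 bases is the length for TLR2.

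TLR5, the flagellin receptor, was detected at a level too low to compare. It had 17 counts in Control and 14 in LPS, with 13 for WT PDZ+LPS and 11 for mut PDZ+LPS, or 12.9 to 14.8 normalized counts. The log2 fold change in LPS/Control was -0.16, and its interval of -1.3 to 0.94 includes a 2-fold decrease, so a difference of that size was not detectable at this depth. The intervals of TLR5 included 0 in all 6 comparisons. Removal of the length and GC trend moved mut PDZ+LPS/LPS from -0.025 to 0.22 and mut PDZ+LPS/Control from -0.18 to 0.047.

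**Figure D1:**
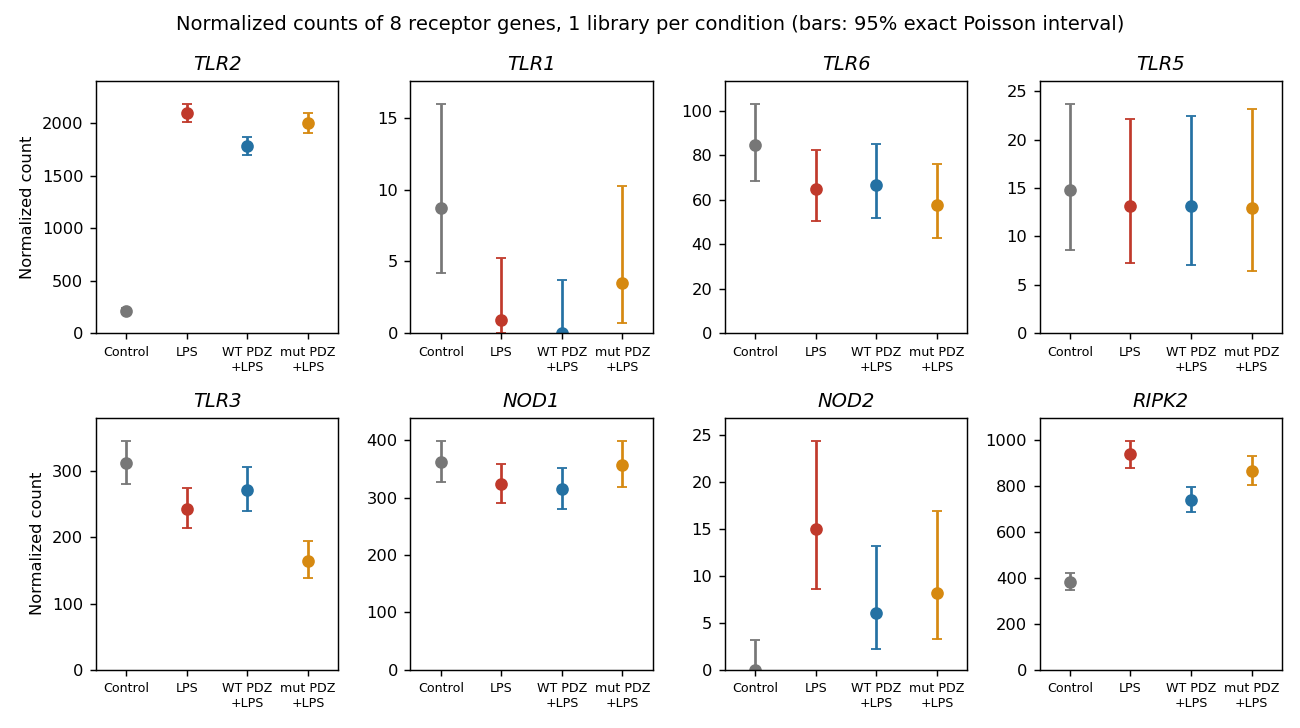
Normalized counts (vertical axes, linear, starting at 0) of the 8 genes in the 4 libraries, 1 point per library with its exact 95% Poisson interval. TLR2 and RIPK2 are lowest in Control and lower in WT PDZ+LPS than in LPS, whereas TLR1, TLR5 and NOD2 stay under 16 normalized counts throughout.

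NOD1, the sensor of peptidoglycan fragments that is known from most epithelia, was present at a similar level in all libraries. It had 416 counts in Control and 344 in LPS, with 312 for WT PDZ+LPS and 304 for mut PDZ+LPS, or 362, 324, 315 and 357 normalized counts. The log2 fold change in LPS/Control was -0.16 (-0.37 to 0.048). Against LPS it was -0.038 (-0.26 to 0.19) with WT PDZ+LPS and 0.14 (-0.085 to 0.37) with mut PDZ+LPS. These 3 intervals include 0 and lie within 2-fold in either direction. After removal of the length and GC trend the value in mut PDZ+LPS/LPS was 0.30. Relative to Control, the mut PDZ+LPS value was -0.019 before and 0.11 after that removal.

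NOD2, the muramyl dipeptide sensor, was detected in the 3 libraries with LPS and not in Control. It had 0 counts in Control and 16 in LPS, with 6 for WT PDZ+LPS and 7 for mut PDZ+LPS, or 0, 15.1, 6.06 and 8.22 normalized counts. With the 0 taken as 3 counts, NOD2 was at least 5.76-fold higher in LPS, at least 2.32-fold higher in WT PDZ+LPS and at least 3.15-fold higher in mut PDZ+LPS than in Control. The lower limits of the counting intervals were smaller, at 4.17, 1.37 and 1.95 times the Control level. It was not called, because the LPS library fell just short of 16 normalized counts. Among the libraries with LPS the intervals included 0, with a log2 fold change of -1.19 (-2.95 to 0.12) in WT PDZ+LPS/LPS and -0.80 (-2.39 to 0.49) in mut PDZ+LPS/LPS, the latter -0.64 after removal of the length and GC trend. Antisense genes in GENCODE overlap 10.9% of the NOD1 exon bases and 2.94% of the NOD2 exon bases, and whether the counting used the strand is not given in the sources used here.

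RIPK2, the kinase shared by NOD1 and NOD2, was at 1.93 to 2.44 times its Control level in the 3 libraries with LPS. It had 440 counts in Control and 996 in LPS, with 732 for WT PDZ+LPS and 736 for mut PDZ+LPS, or 383, 937, 739 and 865 normalized counts. As for TLR2, Control was lowest, and WT PDZ+LPS was the lowest library with LPS. The log2 fold change relative to Control was 1.29 (1.13 to 1.46) for LPS and 1.17 (1.0 to 1.35) for mut PDZ+LPS, and RIPK2 was called in both. The second value was 1.22 after removal of the length and GC trend. For WT PDZ+LPS it was 0.95 (0.78 to 1.12), just under the threshold. Against LPS, RIPK2 was lower in WT PDZ+LPS by more than counting error (-0.34, -0.48 to -0.20). The interval in mut PDZ+LPS/LPS included 0 (-0.12, -0.25 to 0.023, and -0.11 after removal of the length and GC trend). Between the peptides the value was 0.23 (0.077 to 0.38) in mut PDZ+LPS/WT PDZ+LPS, both before and after removal of the length and GC trend.

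**Figure D2:**
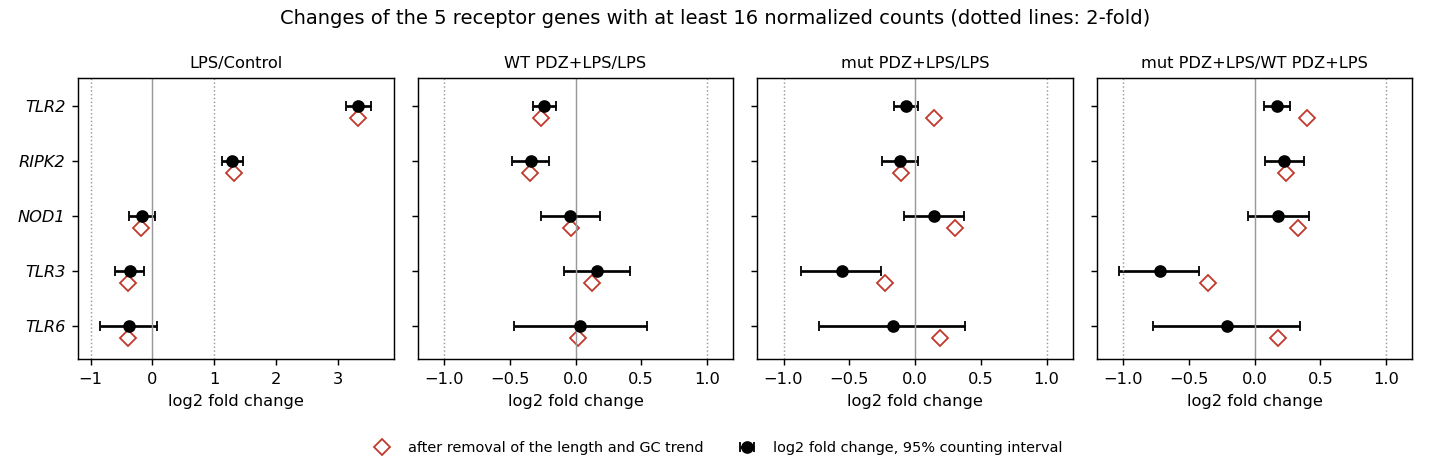
log2 fold changes (horizontal axes, with a wider scale in the first panel) of the 5 genes that passed the expression rule, in 4 comparisons. Black points carry the 95% counting interval, red diamonds are the values once the length and GC trend was removed, and dotted lines mark 2-fold. TLR2 and RIPK2 lie beyond 2-fold in LPS/Control, and all 5 genes lie within 2-fold in the other panels.

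The structural difference between the peptides, a pair of glycines replaced by alanines, could be compared once, in mut PDZ+LPS/WT PDZ+LPS at matched times. TLR2 and RIPK2 were higher with the mutant peptide by 0.17 and 0.23 on the log2 scale, and TLR3 was lower by 0.72, each beyond counting error. NOD1 (0.18, -0.052 to 0.41) and TLR6 (-0.21, -0.77 to 0.34) did not differ beyond it, nor did TLR5 (-0.021, -1.32 to 1.25) and NOD2 (0.39, -1.36 to 2.29), whose intervals are wide. After removal of the length and GC trend the values were 0.33 for NOD1, 0.18 for TLR6, 0.23 for TLR5 and 0.54 for NOD2, so TLR6 and TLR5 turned from lower to higher. The value of TLR2 became 0.40 and that of TLR3 became -0.36. In this comparison rho between length and log2 fold change was -0.612, and the median over the shortest 10% of transcripts was 0.41 against -0.51 for the longest 10%. The mut PDZ peptide and the length trend come from the same library and cannot be told apart.

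**Figure D3:**
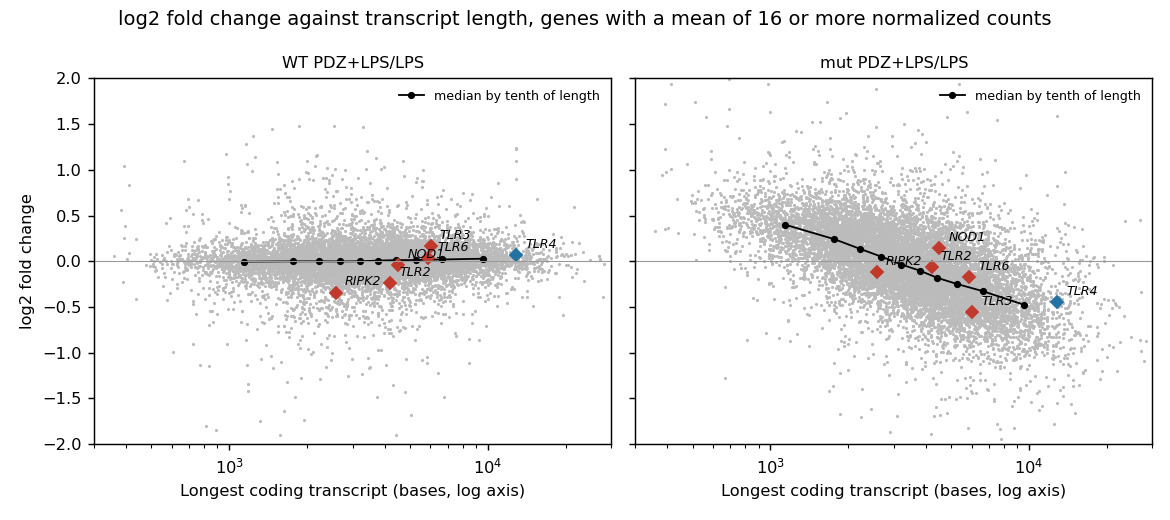
log2 fold change (vertical axis, drawn from -2 to 2) against the length of the longest coding transcript (log axis) for genes averaging 16 or more normalized counts, with WT PDZ+LPS/LPS on the left and mut PDZ+LPS/LPS on the right. The black line joins medians by bins of 10% of the genes, which run from 0.40 to -0.48 in mut PDZ+LPS/LPS and stay near 0 in WT PDZ+LPS/LPS, with 5 of the described genes in red and TLR4 in blue.

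Levels of different genes were compared per length, as RPKM (reads per kilobase of the longest coding transcript and per 1000000 counts). In Control, RIPK2 was highest at 6.86 RPKM, followed by TLR4 at 5.70 and NOD1 at 3.72. TLR3 (2.40) and TLR2 (2.30) came next and did not differ beyond counting error. TLR6 followed at 0.665, then TLR5 (0.160) and TLR1 (0.141), which did not differ beyond counting error, and NOD2 at 0. In LPS the order became TLR2 at 21.1, RIPK2 at 15.3, TLR4 at 5.27, NOD1 at 3.04, TLR3 at 1.71 and TLR6 at 0.466 RPKM. Each of these differed from the next beyond counting error. NOD2 (0.142) and TLR5 (0.130) did not differ beyond counting error, and TLR1 was last. The same order of the upper 6 genes was found in WT PDZ+LPS, from 17.9 RPKM for TLR2 to 0.479 for TLR6, and in mut PDZ+LPS, from 20.6 to 0.423. TLR2 was thus the fifth of the genes in Control and the first in every library with LPS. The place of TLR4 depended on the transcript taken for its length, since with the first listed transcript it had 13.5 RPKM in Control and 13.1 RPKM in WT PDZ+LPS, above RIPK2 in both.

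TLR4 itself had 1818 counts in Control and 1705 in LPS, with 1664 for WT PDZ+LPS and 999 for mut PDZ+LPS, with a log2 fold change of 0.020 in LPS/Control and -0.45 in mut PDZ+LPS/LPS (0.15 after removal of the length and GC trend). The ratio of TLR2 to TLR4 per length was 0.404 (0.352 to 0.462) in Control and 4.0 (3.76 to 4.27) in LPS, with 3.24 (3.03 to 3.47) for WT PDZ+LPS and 5.22 (4.83 to 5.65) for mut PDZ+LPS. TLR4 was thus above TLR2 in Control and below it in the libraries with LPS. The ratios and shares in this paragraph are without removal of the length and GC trend. After that removal TLR2 and TLR4 were both at 0.15 on the log2 scale in mut PDZ+LPS/LPS, against -0.066 and -0.45 before. The higher ratio of TLR2 to TLR4 in mut PDZ+LPS than in LPS thus depends on whether the trend is removed. With the first listed transcript of TLR4 (5432 bases in place of 12853) the ratios were 0.171, 1.69, 1.37 and 2.21. With the longest transcripts, of the summed level of TLR1 to TLR10, TLR2 made up 20.1% in Control and 73.5% in LPS, with 68.9% for WT PDZ+LPS and 78.2% for mut PDZ+LPS. The share of TLR4 was 49.9% in Control and 18.4% in LPS. With the first listed transcripts TLR2 made up 11.6% in Control and 58.0% in LPS, and TLR4 67.7% and 34.3%. The ratio of RIPK2 to NOD1 was 1.84 in Control and 5.04 in LPS, with 4.08 for WT PDZ+LPS and 4.22 for mut PDZ+LPS.

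**Figure D4:**
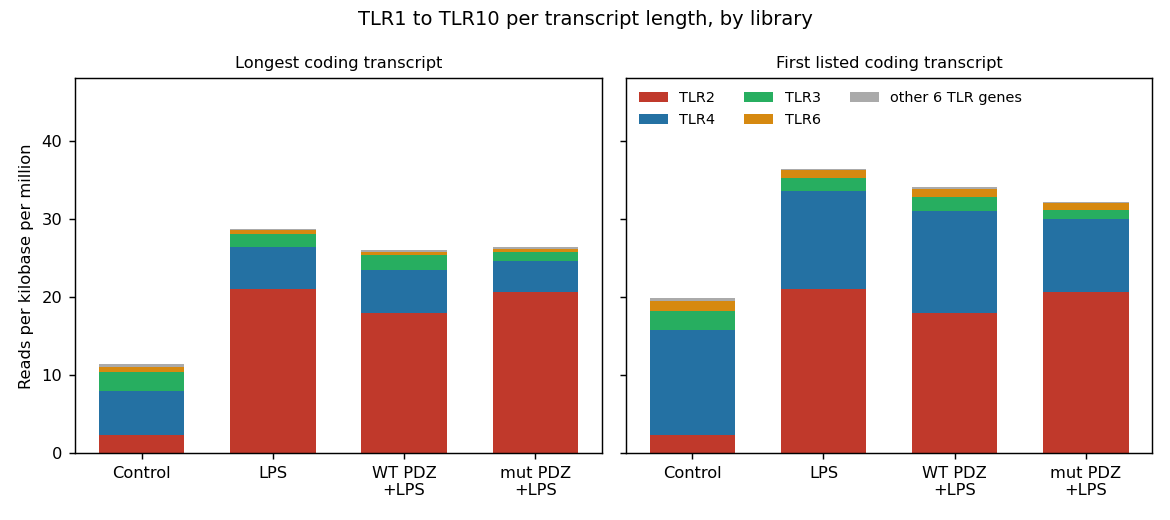
Summed level of TLR1 to TLR10 per library (bars from 0, in RPKM), with lengths from the longest (left) or the first listed (right) coding transcript. No length or GC trend was removed. The red share, TLR2, is 20.1% of the bar in Control and 68.9 to 78.2% in the libraries with LPS with the longest transcript, and the blue share, TLR4, is larger with the first listed one.

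The genes around the receptors were counted in 7 lists, with LPS/Control as the comparison unless another is named. Of 16 co-receptors, chaperones and transporters, 9 passed the expression rule and none was called in any of the 6 comparisons. Their median log2 fold change was -0.18, against -0.0023 over all genes passing the rule. Of these, CD14, a co-receptor that hands ligands to TLR2 and TLR4, had 507 counts in Control and 415 in LPS. Its log2 fold change was -0.18, with an interval that included 0 (-0.37 to 0.013). UNC93B1, which carries TLR3 to endosomes, had 686 and 550 counts, with a log2 fold change of -0.21 (-0.37 to -0.043). LY96, which encodes the MD-2 partner of TLR4, had 1 count in Control and 0 in the other libraries.

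All 20 adaptors and proximal kinases of TLR signalling passed, and 4 were called higher and 0 lower, against 3.46% and 1.41% of all genes, with a median of 0.089. IRAK2, a kinase that binds MYD88, had 126 counts in Control and 1140 in LPS, with 997 for WT PDZ+LPS and 597 for mut PDZ+LPS. These correspond to 110, 1072, 1007 and 701 normalized counts. The log2 fold change of IRAK2 was -0.61 in mut PDZ+LPS/LPS (-0.51 after removal of the length and GC trend) and 3.28 (3.02 to 3.57) in LPS/Control. IKBKE, a kinase upstream of interferon regulatory factors, was higher by 1.61 (1.45 to 1.77), and TICAM1, the adaptor of TLR3, by 1.08 (0.89 to 1.27). MYD88, the adaptor of all members of the family except TLR3, was not called (-0.11, -0.24 to 0.026). TICAM2 had 0 counts in Control and 27, 35 and 30 in the libraries with LPS, so it was at least 9.73-fold higher in LPS when the 0 was taken as 3 counts, with a lower limit of the counting interval of 2.88 on the log2 scale. It shares sequence with the read-through symbol TMED7-TICAM2, which had 354 counts in Control and 210 in LPS, so its counts are uncertain. Relative to Control, IKBKE, IRAK2 and TICAM2 were called higher with WT PDZ+LPS, against 3.28% of all genes, and these genes and TICAM1 with mut PDZ+LPS, against 5.13%.

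Of 17 partners of the NOD1, NOD2 and RIPK2 complex, 15 passed and 1 was called higher, against 3.46% of all genes, with a median of 0.051. This was BIRC3, a ubiquitin ligase that modifies RIPK2, with 1757 counts in Control and 17189 in LPS, followed by 14033 with WT PDZ+LPS and 11171 with mut PDZ+LPS. The log2 fold change of BIRC3 was 3.40 (3.33 to 3.47) in LPS/Control and -0.19 (-0.22 to -0.16) in WT PDZ+LPS/LPS. XIAP, the ubiquitin ligase known to be needed for NOD2 signalling, had a log2 fold change of -0.022 in LPS/Control. CHUK, which encodes the IKK-alpha kinase, was the one gene of the list called in mut PDZ+LPS/WT PDZ+LPS, at -1.09, and it fell short of 2-fold (-0.93) after removal of the length and GC trend. Of all genes 2.14% were called lower in that comparison.

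Of 15 negative regulators, 14 passed and 4 were called higher, against 3.46% of all genes, with a median of 0.13. TNFAIP3 encodes A20, an enzyme that removes ubiquitin chains from signalling complexes including that of RIPK2. It had 575 counts in Control and 11022 in LPS, with 9855 for WT PDZ+LPS and 8078 for mut PDZ+LPS. These correspond to 500, 10368, 9951 and 9492 normalized counts. The log2 fold change of TNFAIP3 was -0.13 in mut PDZ+LPS/LPS (0.13 after removal of the length and GC trend) and 4.37 (4.25 to 4.5) in LPS/Control. TNIP1, which binds A20, was higher by 1.91, IRAK3, an IRAK family member that restrains TLR signalling, by 1.70, and PELI1, a ubiquitin ligase that acts on IRAK proteins, by 1.37. TNFAIP3, TNIP1, IRAK3 and PELI1 were also called higher than Control with either peptide, where 3.28% (WT PDZ+LPS) and 5.13% (mut PDZ+LPS) of all genes were. Among these negative regulators none was called between libraries with LPS.

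Of 11 other NLR genes 6 passed and none was called, with a median of -0.074. Of 10 cytosolic nucleic acid sensors 8 passed and DDX58, the RIG-I sensor of viral RNA, was called higher (1.36, 1.21 to 1.5), against 3.46% of all genes, with a median of 0.013. NLRC3 was the one gene of the 7 lists called in WT PDZ+LPS/LPS or mut PDZ+LPS/LPS, where 0.733% and 1.9% of all genes were called lower. It had 28 counts in Control and 39 in LPS, with 15 for WT PDZ+LPS and 29 for mut PDZ+LPS, and a log2 fold change of -1.22 (-2.24 to -0.38) in WT PDZ+LPS/LPS. Between the peptides it was called higher with the mutant (1.12, 0.22 to 2.17, and 1.42 after removal of the length and GC trend). This call was lost with a pseudocount of 5 (0.96), and both NLRC3 calls were lost under an expression rule of 6 on the log2 scale or a 3-fold threshold. The list of other Toll-like receptors held 5 genes, of which TLR4 passed and was not called.

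**Figure D5:**
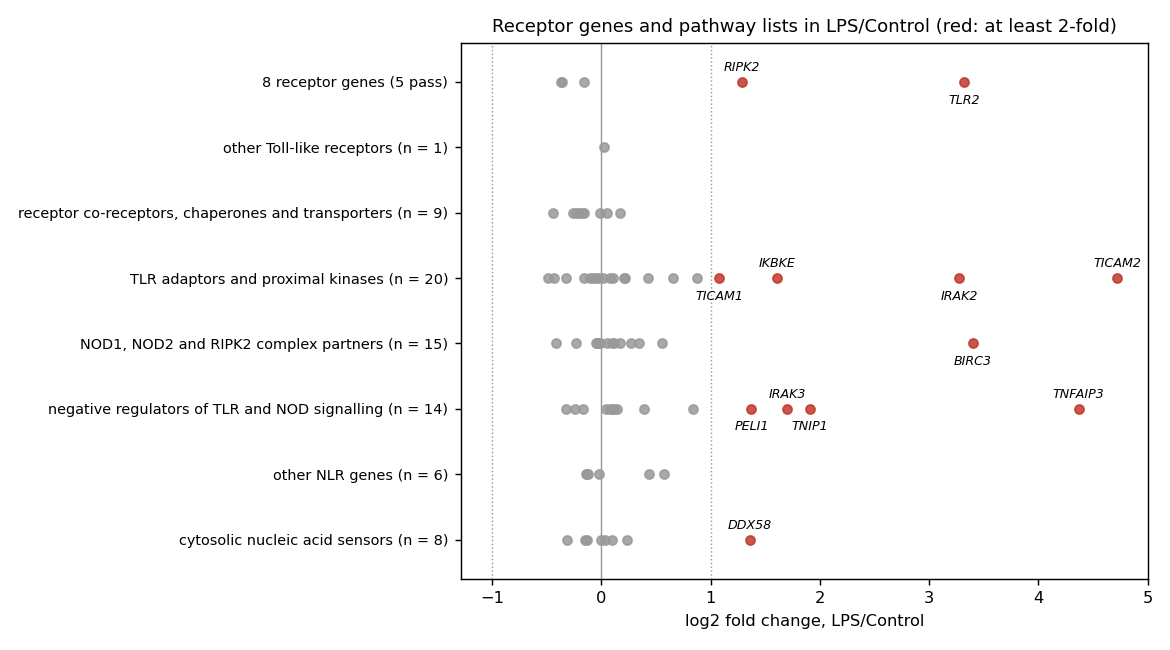
log2 fold change in LPS/Control (horizontal axis) of each gene that passed the expression rule, 1 row per list and 1 point per gene. Red points, labelled by gene, are at least 2-fold higher. They include TLR2 and RIPK2 in the top row, 4 adaptors or kinases, BIRC3, 4 negative regulators and DDX58, and the value of TICAM2 depends on the added count of 1 because Control was at 0.

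The patterns of TLR2 and RIPK2 over the 4 libraries were set beside those of 10858 genes averaging 100 or more normalized counts. Likeness was the Euclidean distance between the 4 centred log2 values. The genes nearest to TLR2 were TNFAIP8 (distance 0.048), MAP3K8 (0.061) and SERPINE2 (0.20). TNFAIP8 was higher by 3.27 on the log2 scale in LPS/Control. Against LPS its value was -0.25 with WT PDZ+LPS and -0.048 with mut PDZ+LPS, and for MAP3K8, which encodes a kinase of the MAP kinase cascade, the 3 values were 3.25, -0.24 and -0.060. Nearest to RIPK2 were LRG1 (0.10), FSTL3 (0.11) and TAPBP (0.12), with 1.19, 1.17 and 1.15 in LPS/Control. With 4 libraries these distances are a description of likeness in level and nothing more.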

How the data were processed

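Poly(A)-selected RNA of BEAS-2B cells was sequenced as paired-end 100-base reads from a directional kit, with 1 library per condition. The authors trimmed adapters and bases of low quality, mapped the reads with TopHat (hg19, per the submitters' processing notes) and deposited raw counts per gene symbol. The counting tool, its annotation and its strand setting are not given in the sources used here. FPKM values and normalization are also named in the paper's methods, but the deposited counts are whole numbers without either.

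Depth was 24823347 counts for Control and 25155647 for LPS, with 23446600 after WT PDZ and 19682929 after mut PDZ. Groups were taken from the sample labels, and the 6 pairs of libraries were compared without a test. Size factors were geometric medians of ratios (DESeq2 1.42.0, R 4.3.3), with a pseudocount of 1. Intervals at 95% cover counting error only, because each condition had 1 library. They treat every read as independent, although amplified reads were not tagged by molecule, so they may be too narrow. Against a library at 0 a fold is a bound that takes 3 counts for the 0. Lengths and GC contents are of the longest coding transcript in GENCODE 29. Its coordinates, on GRCh38 rather than the hg19 of the mapping, were used only for exon overlaps, over all annotated exons of a gene. Trends were removed by lowess (span 0.3, statsmodels 0.14.6, Python 3.11.15) over 11753 of the 13072 genes averaging 16 or more normalized counts.

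The members and lists were chosen with earlier results of these data known. Named genes were the 8 members, TLR4, up to 6 genes of each list called in LPS/Control, those called in WT PDZ+LPS/LPS or mut PDZ+LPS/LPS, and the 3 nearest patterns of each called member. CD14, UNC93B1, LY96, MYD88, XIAP, CHUK and TMED7-TICAM2 were named after their values were seen. Alternatives were scaling by upper quartile, by total count or by TMM (edgeR 4.0.16), a pseudocount of 5, removal of the length and GC trend, no expression rule, a rule of 6 on the log2 scale, and folds of 1.5 and 3. The steps were tested on simulated Poisson counts with known changes placed in LPS/Control. These held no length trend and no spread between cultures, so they cannot speak to either. RefSeq promoters were used for 6 of the 8 members (not for TLR1 and RIPK2) and are printed for 2. Protein sequences were not analysed here.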

Additional observations from a re-analysis of the deposited data

How the results depend on the processing

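No paired analysis was possible because each condition had 1 library and no result came from a test. For the same reason no library could be left out of a comparison. TLR2 was called higher against Control in all 3 comparisons under every alternative, and its log2 value ranged from 3.19 to 3.32 in LPS/Control and from -0.26 to -0.24 in WT PDZ+LPS/LPS. RIPK2 ranged from 1.16 to 1.33 and from -0.35 to -0.34 in the same comparisons. Without an expression rule, the receptor genes called came to 3 higher (TLR2, RIPK2, NOD2) and 1 lower (TLR1) in both LPS/Control and mut PDZ+LPS/Control, and 2 higher (TLR2, NOD2) and 1 lower (TLR1) in WT PDZ+LPS/Control. It also gave 1 lower (NOD2) in WT PDZ+LPS/LPS, 1 higher (TLR1) in mut PDZ+LPS/LPS and 1 higher (TLR1) in mut PDZ+LPS/WT PDZ+LPS, and the added calls of NOD2 and TLR1 rest on 16 counts or fewer. A 1.5-fold threshold gave 2 higher (TLR2, RIPK2) in WT PDZ+LPS/Control and 1 lower (TLR3) in each of mut PDZ+LPS/Control and mut PDZ+LPS/WT PDZ+LPS. A 3-fold threshold left 1 higher (TLR2) in LPS/Control and 1 higher (TLR2) in mut PDZ+LPS/Control. Total-count scaling, which shifted the median of all genes to -0.13 in LPS/Control, gave 1 lower (TLR3) in mut PDZ+LPS/Control. Reading the rule on log2(normalized count + 1), an alternative chosen after seeing the data, gave 1 lower (NOD2) in WT PDZ+LPS/LPS and 3 higher (TLR2, RIPK2, NOD2) in LPS/Control. Apart from the fewer or more genes that each setting admits, the cause was not tested. Over all genes, the numbers higher and lower in LPS/Control were 460 and 187 as reported, 1176 and 969 without the expression rule, 333 and 50 with a rule of 6 on the log2 scale, 422 and 123 with a pseudocount of 5, 891 and 633 at 1.5-fold, and 243 and 45 at 3-fold. For mut PDZ+LPS/LPS they were 274 and 254 as reported, 146 and 112 with the length and GC trend removed (among genes with a length), and 58 and 159 with the rule of 6. In mut PDZ+LPS/WT PDZ+LPS, 284 and 286 became 146 and 106, and 70 and 177. In WT PDZ+LPS/LPS the lowest and highest numbers over the settings were 6 and 1322 higher and 5 and 784 lower. For the lists, the pseudocount of 5 removed the NLRC3 call in mut PDZ+LPS/WT PDZ+LPS and kept that in WT PDZ+LPS/LPS. The rule of 6 removed both NLRC3 calls. Trend removal ended the CHUK call and added 1 sensor higher in mut PDZ+LPS/Control and 1 NLR gene higher in mut PDZ+LPS/LPS. Upper-quartile scaling added 1 negative regulator higher in mut PDZ+LPS/LPS. The first listed transcript, also chosen after seeing the data, lowered the ratio of TLR2 to TLR4 per length as given above. Depth limits TLR1, TLR5 and NOD2, whose counting intervals span more than 2-fold.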
